A study of Mus musculus with 9 samples.

Results

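The 10 genes described here belong to the set with which cells show antigen to CD4+ T cells and then costimulate or restrain them. They are the class II chains H2-Aa, H2-Ab1, and H2-Eb1, the class II loading proteins Cd74 and H2-DMa, the class II transactivator Ciita, the costimulators Cd80, Cd86, and Cd40, and the coinhibitory ligand Cd274. The genes were chosen by name, and the estimated counts of all annotated transcripts of each were summed, which gave 10 of the 54119 genes in the table. Expression was measured by RNA-seq in 9 libraries of primary microglia from C57BL/6J mice, 3 for each of the control, Chd8, and Tsc2 siRNAs, numbered 1 to 3 within each group. No allele or transgene was named for any group, and a short interfering RNA (siRNA) lowers the mRNA it matches. According to the methods, the cells were shaken from mixed glial cultures of whole brains taken from embryos late in gestation, and a biological replicate was a culture from a distinct brain. The results text of the study places these libraries after stimulation with lipopolysaccharide (LPS), and its methods do not list the RNA-seq among the experiments without LPS, while its RNA-seq methods and the sample labels name the siRNA only. Because no source ties a replicate number to a culture, p-values measure the spread between these libraries, which may in part be technical.

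Class II molecules are pairs of an alpha and a beta chain that carry peptides from engulfed proteins to the cell surface. The invariant chain, encoded by Cd74, occupies the groove of newly made class II molecules, and H2-DM exchanges its remnant for peptide. Ciita does not bind DNA itself and is recruited to the X and Y boxes of class II promoters by the RFX, CREB, and NF-Y proteins. CD80 and CD86 bind CD28 and CTLA-4 on T cells, CD40 receives CD40 ligand, and CD274 (PD-L1) engages PD-1. Resting microglia are known for low class II levels, which rise with interferon gamma.

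Totals ranged from 16913448 to 33213801 estimated counts per library, and the detection floor of 3 counts lay between 0.0903 and 0.177 CPM (counts scaled to library size), for counting error only. Of all genes, 16273 passed the count filter, among them 9 of the 10 members; Ciita did not. Chd8 was at 86.8, 44.5, and 38.3 CPM in Chd8 siRNA libraries 1 to 3 and at 93.6 to 118 CPM in the controls. Tsc2 was at 24.6, 30.6, and 36.5 CPM in Tsc2 siRNA libraries 1 to 3 and at 38.9 to 40.8 CPM in the controls. Neither knockdown was called in the edgeR fit with siRNA only (log2 fold change −0.86 for Chd8 and −0.38 for Tsc2, adjusted p = 1.00 for both). With the replicate number as a block Chd8 was called (−0.93, adjusted p = 0.00777) and Tsc2 was not (−0.39, adjusted p = 0.219). The microglial marker Csf1r (405 to 572 CPM) was high in every library, whereas the homeostatic markers P2ry12 (0.686 to 2.78 CPM) and Tmem119 (0.000 to 1.11 CPM) were low.

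The 2 promoters of class II chains found among the RefSeq sequences, those of H2-Aa and H2-Eb1, are printed because these genes varied together across the libraries. Each is the 250 bases before the start of the gene on GRCm38.p6, at chr17:34287824-34288073 on the minus strand for H2-Aa and at chr17:34305617-34305866 on the plus strand for H2-Eb1. Capitals mark matches to the X1 box core GCAAC, the Y box TGATTGG, and, in H2-Aa, the NF-kB consensus.
H2-Aa: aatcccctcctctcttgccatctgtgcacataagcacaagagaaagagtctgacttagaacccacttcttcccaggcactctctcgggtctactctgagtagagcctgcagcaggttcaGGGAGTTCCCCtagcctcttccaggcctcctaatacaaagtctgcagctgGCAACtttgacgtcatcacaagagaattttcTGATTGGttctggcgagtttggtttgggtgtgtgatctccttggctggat
H2-Eb1: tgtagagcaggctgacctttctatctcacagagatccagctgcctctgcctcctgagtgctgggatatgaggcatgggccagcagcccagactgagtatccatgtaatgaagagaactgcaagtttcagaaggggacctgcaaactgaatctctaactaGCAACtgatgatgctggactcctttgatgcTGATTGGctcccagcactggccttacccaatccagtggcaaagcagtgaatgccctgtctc
The X1 core lay at −81 to −77 and the Y box at −50 to −44 in H2-Aa, and at −91 to −87 and −61 to −55 in H2-Eb1, counted back from the base before the start. Searched on both strands of the same window, GCAAC was in 29.9% and TGATTGG in 7.23% of 32851 promoters, and the core followed by the Y box within 40 bases in 102 of them (0.31%). A pair of overlapping NF-kB matches spanned −131 to −121 of H2-Aa, a motif held by 3.9% of promoters. Neither window held the interferon-stimulated response element, found in 2.98% of promoters, or the gamma-activated site TTCNNNGAA, found in 7.02%. The Cd80 and Cd274 windows and both H2-DMa windows held no Y box. Sequences of 5 of the 10 members were matched. Such matches describe the letters only.

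To compare levels between genes, counts were divided by transcript length and scaled to a common total (TPM computed here). Cd40 (mean 138 TPM over the 9 libraries) and Cd274 (124 TPM) were the highest members, above 98.5% and 98.4% of the genes tested, and their ranges overlapped. Cd86 (34.7 TPM) and Cd74 (30.3 TPM) came next and also overlapped each other. Cd274 was above Cd86 in all 9 libraries, with means 3.59-fold apart, and Cd74 was above Cd80 in all 9, with means 7.28-fold apart. Cd80 (4.16 TPM), H2-DMa (1.83), H2-Ab1 (0.875), H2-Aa (0.507), H2-Eb1 (0.353), and Ciita (0.0210) completed the order, and each overlapped its neighbour. The mRNAs of Cd40, Cd274, Cd86, and the invariant chain were thus above at least 92.8% of the genes tested, that of Cd80 above 70.5%, and those of the class II chains above 29.4 to 45.3%.

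**Figure D1:**
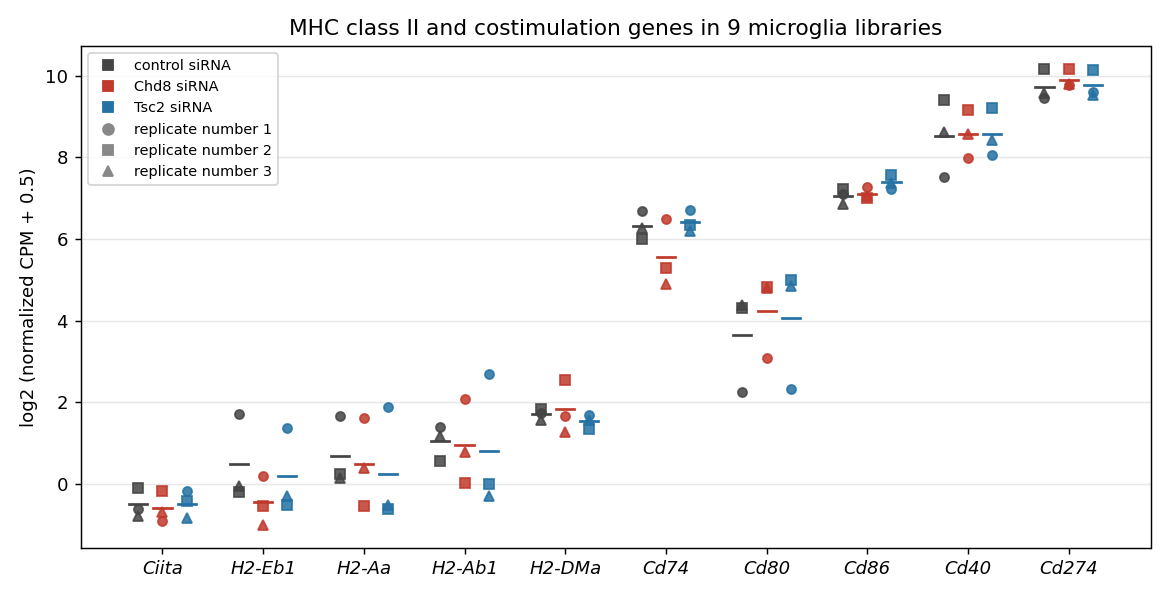
Normalized CPM of the 10 members on a log2 axis after adding 0.5, by siRNA (colour) and replicate number (symbol), with short lines at the group means of the log2 values. The class II chains sit at or below 6.02 CPM in every library, whereas Cd274 sits above 699 CPM, and the libraries numbered 1 (circles) stand at an end of several columns.

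H2-Aa (ENSMUSG00000036594, chr17:34282744-34287823, minus strand), the alpha chain of I-A, was at 2.68, 0.677, and 0.601 CPM in control siRNA libraries 1 to 3. It was at 2.55, 0.191, and 0.823 CPM with Chd8 siRNA and at 3.20, 0.150, and 0.205 CPM with Tsc2 siRNA. In each group the library numbered 1 was the highest, and the groups overlapped. H2-Ab1 (ENSMUSG00000073421, chr17:34257689-34269419), the beta chain of I-A, was at 2.15, 0.985, and 1.76 CPM in the controls, at 3.72, 0.510, and 1.23 CPM with Chd8 siRNA, and at 6.02, 0.501, and 0.322 CPM with Tsc2 siRNA. H2-Eb1 (ENSMUSG00000060586, chr17:34305867-34316674), the beta chain of I-E, was at 2.79, 0.369, and 0.472 CPM in the controls, at 0.636, 0.191, and 0.000 CPM with Chd8 siRNA, and at 2.09, 0.201, and 0.322 CPM with Tsc2 siRNA. These levels rested on 3 to 76 counts per library for H2-Aa, 8 to 141 for H2-Ab1, and 0 to 74 for H2-Eb1, so that the lowest libraries of H2-Aa and H2-Eb1, but not of H2-Ab1, were at or under the floor of 3 counts. A gene on the opposite strand, Gm20513, overlaps H2-Eb1. These are mRNA levels, and whether each chain reached the cell surface in this strain was not measured.

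The counts of H2-Aa also lay on different transcripts. The 256-codon transcript H2-Aa-201 held 67.8, 63.4, and 65.4 counts in the control, Chd8, and Tsc2 siRNA libraries numbered 1, and 10 and 20 in control siRNA 2 and Chd8 siRNA 3. In the other 4 libraries it was at 0, and all H2-Aa counts, 3.00 to 14.0, were assigned to the retained-intron transcript H2-Aa-203. For H2-Ab1, 94.0% of the counts summed over the 9 libraries were on the protein-coding H2-Ab1-201, a sum in which the libraries numbered 1 weigh most. Per library this share ran from 0 to 100%, since all 8 counts of Chd8 siRNA 2 and 43.4% of those of Tsc2 siRNA 2 were on the retained-intron H2-Ab1-203. Of the H2-Eb1 counts, 40.1% were on transcripts not annotated as protein coding. Salmon divides reads between overlapping transcripts, so these shares are estimates, and at such counts they are coarse.

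Cd74 (ENSMUSG00000024610, chr18:60803848-60812652), the invariant chain, was the class II gene with the highest level. It was at 102, 63.6, and 76.3 CPM in control siRNA libraries 1 to 3, at 90.0, 38.4, and 29.2 CPM with Chd8 siRNA, and at 105, 80.7, and 73.0 CPM with Tsc2 siRNA. Chd8 siRNA libraries 2 and 3 were below the other 7 libraries, and Chd8 siRNA 1 was among the highest 3. The 215-codon transcript Cd74-201 held 86.7% of its counts (80.9 to 90.6% per library) and a 279-codon transcript, the long form with an added protease-inhibitor-like domain, held 12.3% (9.0 to 19.1%). The share of the long form was 13.3% ± 5.1 (SD, n = 3) with control siRNA, 11.9% ± 3.2 with Chd8 siRNA, and 13% ± 4.0 with Tsc2 siRNA, closer together than the libraries within each group.

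H2-DMa (ENSMUSG00000037649, chr17:34119541-34139101), a chain of the peptide exchanger, was at 2.49 to 3.08 CPM with control siRNA, 1.93 to 5.36 CPM with Chd8 siRNA, and 2.06 to 2.73 CPM with Tsc2 siRNA. Of its counts, 72.7% lay on transcripts not annotated as protein coding (49.4 to 92.9% per library), and H2-DMa-204, a processed transcript, held 49.8%. The locus overlaps Brd2 and other genes, so this level is uncertain. Ciita (ENSMUSG00000022504, chr16:10480059-10528418), on which class II transcription depends, had 4, 7, and 2 counts in the controls, 1, 6, and 3 with Chd8 siRNA, and 9, 5, and 2 with Tsc2 siRNA. With group sums of 13, 10, and 16 counts it did not pass the filter of the edgeR fit. Its groups overlapped, with a two-sided exact permutation p of 0.7 or more in each comparison.

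Cd80 (ENSMUSG00000075122, chr16:38455561-38496335) was at 4.26, 19.3, and 20.5 CPM in control siRNA libraries 1 to 3, at 7.94, 27.9, and 27.4 CPM with Chd8 siRNA, and at 4.52, 31.4, and 28.2 CPM with Tsc2 siRNA. All 3 libraries numbered 1 were below the other 6, and at each number both knockdown libraries were above the control. Its partner Cd86 (ENSMUSG00000022901, chr16:36603869-36666081, minus strand) was at 137, 149, and 115 CPM in the controls, at 153, 129, and 133 CPM with Chd8 siRNA, and at 149, 189, and 164 CPM with Tsc2 siRNA. The lowest Tsc2 siRNA library was just above the highest control, and the Chd8 siRNA and control ranges overlapped. Cd80 was carried by a pair of transcripts that both encode 306 codons (59.4% and 39.5% of counts), and Cd86 by Cd86-201 (90.0%).

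Cd40 (ENSMUSG00000017652, chr2:165055627-165072948), the receptor through which T cells license an antigen-presenting cell, was at 182, 676, and 394 CPM in control siRNA libraries 1 to 3. With Chd8 siRNA it was at 253, 567, and 382 CPM and with Tsc2 siRNA at 266, 590, and 341 CPM. From low to high, the order in every group was number 1, 3, and 2. Cd40 counts were divided between transcripts of 289 codons (41.6%), 260 codons (36.7%), and 203 codons (12.05%), and the share of the 289-codon transcript stayed between 39.1 and 45.8% in all libraries. Cd274 (ENSMUSG00000016496, chr19:29367455-29388095), with a single annotated transcript, was at 699, 1145, and 759 CPM in the controls, at 868, 1151, and 881 CPM with Chd8 siRNA, and at 780, 1132, and 741 CPM with Tsc2 siRNA. Here the libraries numbered 2 were above the other 6.

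**Figure D2:**
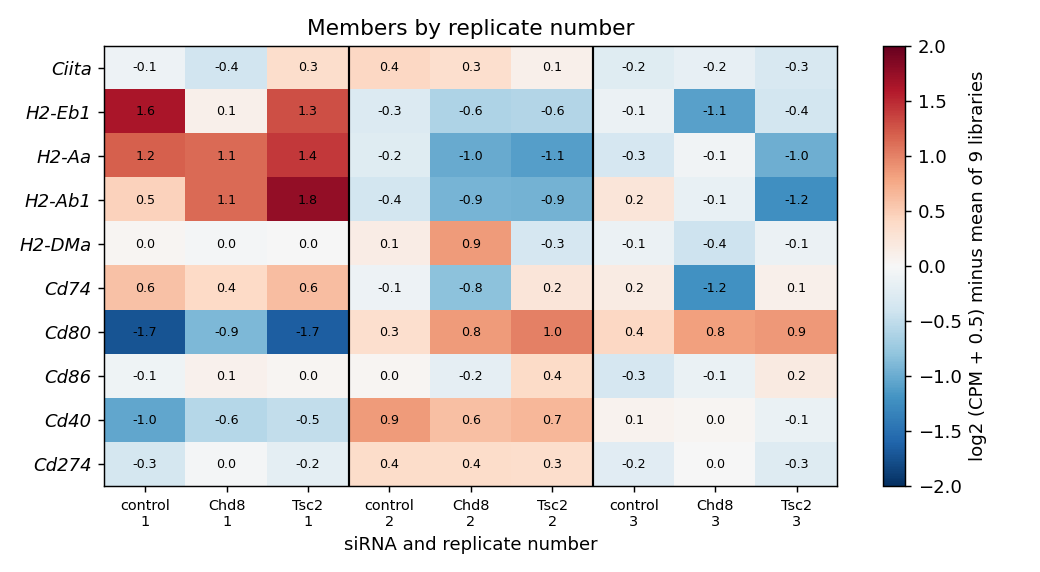
Log2 (normalized CPM + 0.5) of each member minus its mean over the 9 libraries, with libraries ordered by replicate number and then siRNA. The libraries numbered 1 are red for H2-Aa, H2-Ab1, and Cd74 and blue for Cd80 and Cd40, whichever siRNA was used. For H2-Eb1 they are red with control and Tsc2 siRNA and close to white with Chd8 siRNA (0.636 CPM).

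The members separated more clearly by replicate number than by siRNA. The class II chains and Cd74 were higher, and Cd80 and Cd40 lower, in all 3 libraries numbered 1 than in the other 6. The means of the libraries numbered 1 were 6.36-fold (H2-Aa), 4.48-fold (H2-Ab1), 7.10-fold (H2-Eb1), and 1.64-fold (Cd74) those of the others. For Cd80 and Cd40 the mean of the others was 4.63-fold and 2.11-fold that of the libraries numbered 1. Over all genes tested, 9.64% were higher and 9.21% lower in all libraries numbered 1. With siRNA and replicate number in the same edgeR fit, replicate number passed an FDR of 0.05 for 7 of the 9 members tested, where 25% of all genes did. The adjusted p was 3.92e-07 for Cd80, 1.88e-06 for Cd40, 1.95e-05 for Cd274, 0.00169 for H2-Aa, 0.00186 for Cd74, 0.00685 for H2-Ab1, and 0.00837 for H2-Eb1. Cd86 (adjusted p = 0.42) and H2-DMa (adjusted p = 0.541) missed the threshold. Between numbers 2 and 3, Cd40 was 0.72 and Cd274 0.53 higher on the log2 scale at number 2 in 3 of 3 groups (adjusted p = 0.00192 and 0.000328), where 7.03% of all genes passed.

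Markers of some other cells differed between the numbers as well, and those of others did not pass the same test. Replicate number passed for 2 of 6 dendritic cell, 6 of 7 astrocyte, 4 of 4 oligodendrocyte lineage, 3 of 4 fibroblast and endothelial, 2 of 4 border-associated macrophage, and 8 of 9 microglial markers tested, for 9 of 10 genes known to be induced by LPS, and for 0 of 1 B cell and 0 of 3 T cell markers, where 25% of all genes passed. The summed level of 8 dendritic cell markers was 4.14 to 5.24 CPM in the libraries numbered 1 and 9.95 to 20.3 CPM in the other 6, with Itgax (1.37 to 14.9 CPM), Ccr7 (0.134 to 4.81 CPM), Flt3 (0.128 to 2.15 CPM), and Zbtb46 (0.0754 to 1.43 CPM) and with Cd209a at 0. Itgax, at a mean of 7.74 CPM over the 9 libraries, made up most of this sum. Itgax and Ccr7 passed for number (adjusted p = 1.37e-05 and 0.00199). Flt3, Zbtb46, Xcr1, and Batf3 did not (adjusted p = 0.188, 0.339, 0.218, and 0.489). The summed level of 6 B cell markers was 0.670 to 1.21, 0.800 to 1.504, and 2.02 to 3.29 CPM at numbers 1 to 3. The ranges at numbers 1 and 2 overlapped, number 3 lay above them, and Cd79a was at no more than 0.256 CPM. For 6 T cell markers the summed level was 9.25 to 11.4, 8.67 to 11.3, and 8.76 to 12.01 CPM at numbers 1 to 3. Among them, Cd3d was at 5.63 to 9.33 CPM, Cd4 at 0.862 to 2.48 CPM, and Trac at 0. The summed level of 10 microglial markers was 1912 to 2031 CPM at number 1, 1697 to 1828 CPM at number 2, and 1484 to 1839 CPM at number 3. For 7 astrocyte markers these ranges were 11 to 13.8, 22.4 to 26.7, and 45.8 to 102 CPM. They were 24.2 to 27.4, 24.4 to 26.7, and 11.8 to 19.9 CPM for 8 oligodendrocyte lineage markers and 49.6 to 56.6, 66.8 to 70.4, and 59.4 to 96.8 CPM for 7 fibroblast and endothelial markers. For the LPS-induced genes they were 12218 to 14398, 20216 to 22301, and 23903 to 26002 CPM. Their part in the result was not tested. In these bulk libraries, fewer cells of a type and less RNA per cell cannot be told apart.

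To ask whether loss of Chd8 changed these genes, the Chd8 siRNA libraries were compared with the controls. Cd74 was lower and Cd80 and Cd274 were higher with Chd8 siRNA at each of the 3 replicate numbers, but no member was called, which required an FDR of 0.05 and a 1.5-fold change. The mean of Cd74 was 52.5 ± 32.8 CPM (SD, n = 3) against 80.8 ± 19.8 CPM, a log2 fold change of −0.62 (SE 0.37, 95% interval −1.45 to 0.21, edgeR adjusted p = 1.00). Number by number, its log2 ratio was −0.19, −0.72, and −1.37. With the replicate number as a block, the change was −0.73 (SE 0.17, interval −1.10 to −0.36, adjusted p = 0.0601), just above the threshold. Leaving out Chd8 siRNA 1, Tsc2 siRNA 1, or Tsc2 siRNA 3 from the blocked fit brought Cd74 under the threshold (−1.08, −0.76, and −0.74, adjusted p = 0.00434, 0.0300, and 0.0450), and so did the libraries numbered 2 and 3 alone (−1.07, adjusted p = 0.00687). The other 6 blocked fits missed it, with the smallest change without Chd8 siRNA 3 (−0.46, adjusted p = 0.310) and the next without control siRNA 3 (−0.54, adjusted p = 0.373). The blocked values ran from −1.08 to −0.46. With each library left out in turn, the value ran from −1.26 to −0.32 without the block, and none of the 9 fits passed. Among markers of other cells, the blocked fit called 1 of 4 fibroblast and endothelial markers tested (Col1a1, lower) and 0 of 7 astrocyte markers. It called 0.535% of all genes. The summed level of the astrocyte markers was 13.8 to 102 CPM with control and 12.6 to 45.8 CPM with Chd8 siRNA, which overlapped. The part of such cells in the Cd74 values was not tested.

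The other members moved less or rested on few counts. Cd80 was at 21.1 ± 11.4 against 14.7 ± 9.06 CPM, a log2 fold change of 0.52 (SE 0.75, interval −1.15 to 2.20), and with the block 0.61 (SE 0.17, interval 0.25 to 0.98, adjusted p = 0.107). With each library left out in turn, it ran from 0.079 (without control siRNA 1) to 0.92 (without Chd8 siRNA 1), and from 0.40 to 0.73 with the block. Cd274 was at 967 ± 160 against 868 ± 242 CPM, a change of 0.16 (interval −0.35 to 0.67), and with the block 0.18 (interval 0.03 to 0.33, adjusted p = 0.271). Its log2 ratios at numbers 1 to 3 were 0.31, 0.0074, and 0.22, and the unblocked value ran from 0.013 (without Chd8 siRNA 2) to 0.41 (without control siRNA 2). For Cd40 (−0.06, interval −1.10 to 0.98) and Cd86 (0.05, interval −0.27 to 0.37), the blocked intervals were −0.21 to 0.30 and −0.16 to 0.28, so that in these libraries changes of 1.5-fold lay outside them. H2-Eb1 was lower at each number, at 0.276 ± 0.327 against 1.21 ± 1.37 CPM and a log2 fold change of −2.08 (SE 1.30), but on 22 against 91 counts in all (blocked −2.24, adjusted p = 0.245). It was −0.56 without control siRNA 1 and −3.79 without Chd8 siRNA 1, the ends of the range with a library left out (−2.80 to −1.69 with the block). For H2-Aa and H2-Ab1 the 95% intervals, −2.78 to 2.51 and −2.13 to 2.48, left both large decreases and large increases possible.

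In all, edgeR's quasi-likelihood test called 0 of the 9 members with Chd8 siRNA, where it called 0% of all 16273 genes. At an unadjusted p under 0.05 it listed 622 genes (3.82%) and 0 members. DESeq2 called 9 genes and limma-voom 0, with 0 members in each. With the replicate block 87 genes (0.535%) were called, again with 0 members, and 4 of 9 members had an unadjusted p under 0.05 where 12.8% of all genes did. The median log2 fold change was 0.05 over the 9 members and −0.02 over all genes. A total of 4 members moved the same way at all 3 numbers, where 36% of all genes did. A p that misses the threshold does not show that levels were alike.

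**Figure D3:**
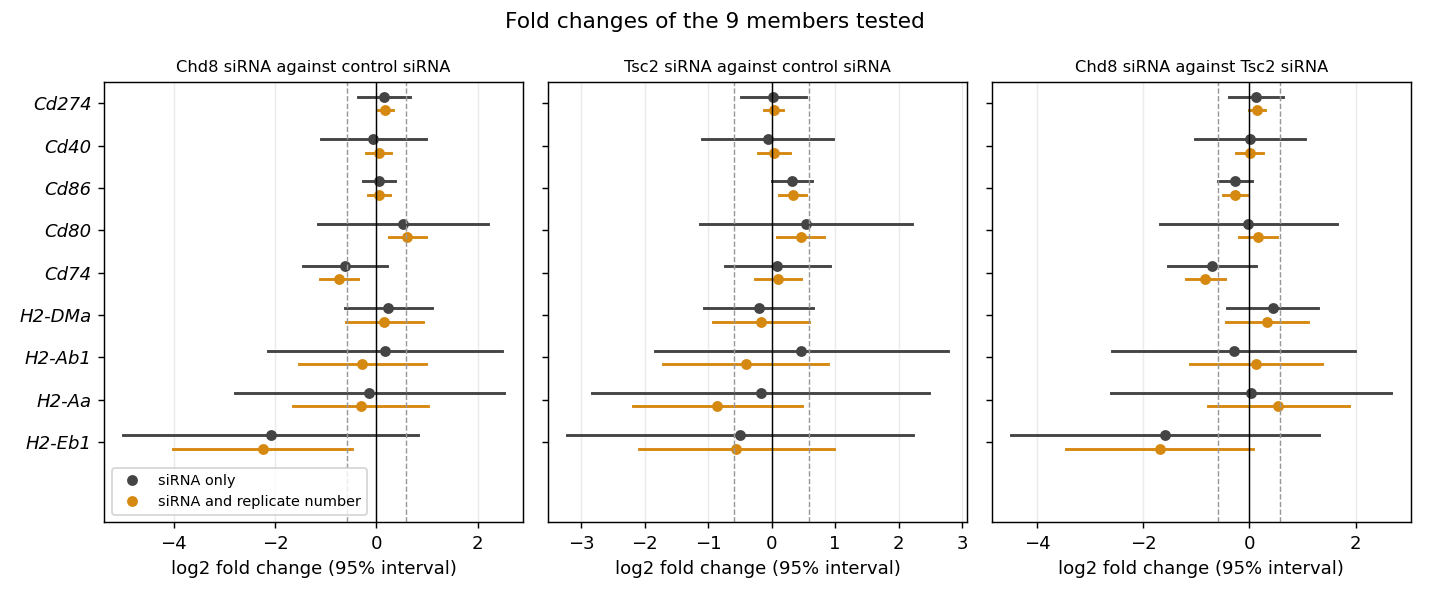
Log2 fold changes with 95% intervals of the 9 members tested, from the fit with siRNA only (grey) and with siRNA and replicate number (orange), and dashed lines at a 1.5-fold change. The orange intervals are narrower for every member, in proportion to the grey ones most of all for Cd80, Cd40, and Cd274. Those of Cd74 lie below 0 in both comparisons that involve Chd8 siRNA.

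The same question was asked of Tsc2. With Tsc2 siRNA, Cd86 was higher than with control siRNA in a comparison whose groups did not overlap. Cd80 was again higher and H2-Eb1 lower at every number, while the means of Cd74 and Cd274 were close to those of the controls. The mean of Cd86 was 168 ± 20.5 CPM (SD, n = 3) against 134 ± 17.1 CPM. Its log2 fold change was 0.33 (SE 0.14, interval 0.01 to 0.64, edgeR adjusted p = 1.00), with a two-sided exact permutation p of 0.1, the smallest that 3 libraries against 3 can give. Its log2 ratios at numbers 1 to 3 were 0.12, 0.35, and 0.51. Tsc2 itself was at 24.6, 30.6, and 36.5 CPM there with Tsc2 siRNA, against 40.8, 39.9, and 38.9 CPM with control siRNA. The Cd86 ratio was thus largest at number 3, where Tsc2 differed least, and smallest at number 1, where Tsc2 differed most. The blocked value of Cd86 was 0.33 (SE 0.10, interval 0.11 to 0.55, adjusted p = 0.217), which corresponds to 1.26-fold. Without Tsc2 siRNA 1 the blocked value was 0.46 (adjusted p = 0.0340), still under the 1.5-fold change required, and the other 8 blocked fits with a library left out gave 0.25 to 0.39 and missed an FDR of 0.05. Higher values without overlap were found for 3.87% of all genes. Among 7 markers of border-associated macrophages, which share many genes with microglia, the summed level was 401 to 407 CPM with control, 431 to 490 CPM with Chd8, and 491 to 543 CPM with Tsc2 siRNA. Most of this sum and of its difference was Ms4a7, at means of 323, 370, and 435 CPM with control, Chd8, and Tsc2 siRNA. The other markers did not move together, since in the same order the means were 74.7, 74.4, and 71.3 CPM for Mrc1, 4.56, 6.91, and 7.32 CPM for Pf4, and 0.147, 0.0472, and 0.0167 CPM for Cd163, and Lyve1 was at 0. Its part in the Cd86 values was not tested.

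Cd80 was at 21.4 ± 14.7 against 14.7 ± 9.06 CPM with Tsc2 siRNA, a log2 fold change of 0.54 (SE 0.75) and with the block 0.46 (SE 0.17, interval 0.09 to 0.82, adjusted p = 0.334). With each library left out in turn, it ran from 0.10 (without control siRNA 1) to 1.02 (without Tsc2 siRNA 1), and from 0.29 (without Tsc2 siRNA 2) to 0.64 with the block. The means of Cd74 (86.1 ± 16.5 against 80.8 ± 19.8 CPM) and Cd274 (884 ± 215 against 868 ± 242 CPM) differed by log2 values of 0.09 (blocked interval −0.26 to 0.46) and 0.03 (blocked interval −0.11 to 0.18). For Cd40 the change was −0.06, and its blocked interval was −0.22 to 0.29. H2-Eb1 was at 0.871 ± 1.06 against 1.21 ± 1.37 CPM, with log2 ratios of −0.34, −0.31, and −0.24 at numbers 1 to 3. Its fitted change was −0.49 (SE 1.22), with 1.04 without control siRNA 1 and −2.18 without Tsc2 siRNA 1, and with the block −0.55 (adjusted p = 0.865). H2-Ab1 depended on a single library, because Tsc2 siRNA 1 was the highest of the 9 at 6.02 CPM and Tsc2 siRNA 3 the lowest at 0.322 CPM. The fitted log2 change was 0.47, against −0.41 under the block and −1.75 in the libraries numbered 2 and 3, with adjusted p above 0.5 in each. No member was called (0% of all genes), 1 member and 425 genes (2.61%) had an unadjusted edgeR p under 0.05, and DESeq2 called 6 genes and limma-voom 0, with 0 members in each. The block called 63 genes (0.387%) and 0 members, and 2 of 9 members against 10.7% of all genes had an unadjusted p under 0.05 in it. A total of 3 members moved the same way at all numbers, where 31.8% of all genes did, and the median log2 fold change was 0.03 over the members and −0.02 over all genes.

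**Figure D4:**
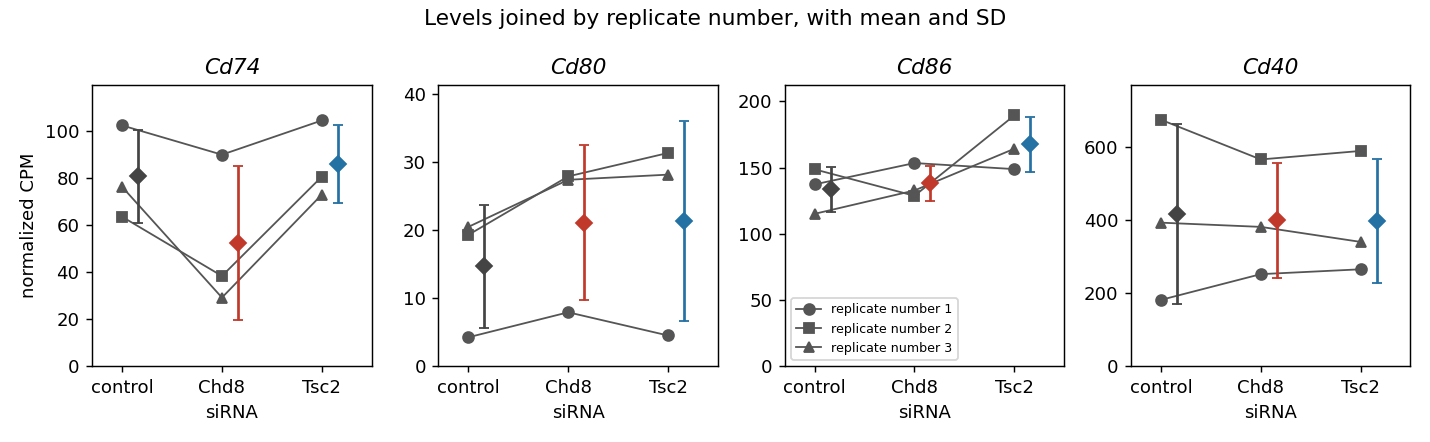
Normalized CPM of Cd74, Cd80, Cd86, and Cd40 in each library, with lines joining libraries that carry the same replicate number and diamonds with bars for the group mean and SD (n = 3). Cd74 is lower with Chd8 siRNA on all 3 lines, from 102 to 90.0, 63.6 to 38.4, and 76.3 to 29.2 CPM, and Cd86 is higher with Tsc2 siRNA on all 3 lines.

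The knockdowns were also set against each other, where no control mean enters the difference. Cd74 was lower with Chd8 siRNA than with Tsc2 siRNA at each number, with log2 ratios of −0.22, −1.06, and −1.31. The fitted change was −0.71 (SE 0.37, interval −1.54 to 0.12, edgeR adjusted p = 1.00), and with the block −0.83 (SE 0.17, interval −1.20 to −0.47, adjusted p = 0.0562). The blocked fit passed the threshold without Chd8 siRNA 1 (−1.18, adjusted p = 0.00348), Tsc2 siRNA 1 (−1.03, 0.0152), control siRNA 1 (−0.86, 0.0443), or control siRNA 3 (−0.86, 0.0445), and in the libraries numbered 2 and 3 alone (−1.19, 0.00261). The other 5 blocked fits missed it, with the smallest change without Chd8 siRNA 3 (−0.58, adjusted p = 0.385) and the next without Tsc2 siRNA 2 (−0.72, adjusted p = 0.336), so that the blocked values ran from −1.18 to −0.58. Without the block they ran from −1.35 (without Chd8 siRNA 1) to −0.42 (without Chd8 siRNA 3), and none of the 9 fits passed. Cd86 differed by −0.28 (interval −0.59 to 0.04) and, with the block, by −0.27 (interval −0.49 to −0.05, adjusted p = 0.331). With each library left out in turn, its value ran from −0.36 to −0.18 without the block. With the block it ran from −0.40 (without Tsc2 siRNA 1) to −0.14 (without Chd8 siRNA 2). H2-Eb1 was lower at each number (−1.59, SE 1.30, and with the block −1.69, adjusted p = 0.497), on 22 against 64 counts. Its unblocked direction turned on a single library, with 0.10 without Tsc2 siRNA 1 and −3.30 without Chd8 siRNA 1. Of the 9 members 0 were called, as were 0% of all genes. At an unadjusted edgeR p under 0.05 there were 0 members and 504 genes (3.1%), and DESeq2 called 5 genes and limma-voom 0. The block called 36 genes (0.221%) and 0 members, and 3 members against 32.1% of all genes moved the same way at all numbers. In the blocked fit 2 members had an unadjusted p under 0.05, where 10.7% of all genes did. The comparisons with control siRNA share the control libraries, and those with either knockdown share its libraries, so the 3 sets of values are not independent.

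The rest of the pathway was read from lists of genes around the members. No list gene was called by edgeR in any comparison, and with the block 0 genes of the class II pathway, class II transcription factor, interferon gamma, costimulation, and CD40 signalling lists were called. The proteases that cut the invariant chain and antigens were abundant, with Ctss at 1280 to 1918 CPM, Ctsb at 4663 to 5797 CPM, and Ctsd at 1326 to 2012 CPM. H2-Oa, a chain of the H2-DM antagonist, was at no more than 0.985 CPM, whereas H2-Ob, its other chain, was at 5.85 to 10.5 CPM. Over the 13 of 16 other class II pathway genes tested, the median log2 fold change was 0.15 with Chd8 siRNA and 0.06 with Tsc2 siRNA.

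Among factors that act on class II promoters, Irf8 (380 to 732 CPM) and Spi1 (299 to 497 CPM) were among the highest of 12 genes. Spi1, the PU.1 factor of myeloid cells, was 0.23 higher with Chd8 siRNA and 0.30 higher with Tsc2 siRNA on the log2 scale (blocked adjusted p = 0.152 and 0.0743). Ifng had 0 counts in every library, while the interferon-inducible Cxcl10 (1476 to 2658 CPM) and Gbp2 (834 to 2140 CPM) were high. In the blocked fit Cxcl10 was 0.33 higher with Chd8 siRNA (adjusted p = 0.0173), which is under the 1.5-fold threshold. Of 13 interferon gamma genes tested, 11 passed for replicate number, as did 25% of all genes.

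Of the other costimulatory genes, Icam1 (502 to 1157 CPM), Cd83 (194 to 647 CPM), and Lgals9 (313 to 393 CPM) had the highest levels, and 8 of 13 passed for replicate number (25% of all genes). Downstream of CD40, Nfkb1 (546 to 923 CPM), Nfkb2 (419 to 769 CPM), and Traf1 (240 to 375 CPM) led, and 7 of 12 passed for number (25% of all genes). Of the T cell receptors of these ligands, Ctla4 and Cd40lg were at 0 in every library and Pdcd1 was at no more than 0.201 CPM. Cd28, at 1.08 to 4.08 CPM on 37 to 83 counts, was above the floor in every library. Of the LPS-induced genes, Tnf (1255 to 10640 CPM), Acod1 (3383 to 4560 CPM), and Ptgs2 (2725 to 4667 CPM) had the highest levels. With the block, Il12b rose by 0.69 (adjusted p = 0.00918) and Nos2 fell by 0.77 (adjusted p = 0.0202) with Tsc2 siRNA. Both are inflammatory genes of macrophages, and neither was called without the block (adjusted p = 1.00).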

How the data were processed

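The data comprised 9 RNA-seq libraries from cultured mouse microglia, 3 per siRNA. The authors quantified reads with salmon 0.14.1 on mm10 and deposited estimated counts per transcript without normalization. The annotation release is not given in the sources used here. For the preparation, the methods name an Illumina total RNA kit and the labels a stranded SMARTer kit. Libraries were matched to columns by sample description.

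Transcripts were assigned to genes with GENCODE mouse release 21 (GRCm38). The 1096 unmatched transcripts held 0.27% of counts and were left out. Counts were summed per gene and rounded, filtered with filterByExpr, and normalized with TMM. Genes were tested with the quasi-likelihood test of edgeR 4.0.16 in R 4.3.3, with all 9 libraries in a single fit, siRNA as the only factor, and Benjamini-Hochberg adjustment over 16273 genes. Calls needed an FDR of 0.05 together with a 1.5-fold change. Exact permutation tests used log2 CPM with a pseudocount of 0.5. TPM computed here used annotated rather than effective lengths. Alternatives were the replicate block, DESeq2 1.42.0, limma-voom (limma 3.58.1), RLE size factors, no count filter, fits of 2 groups, protein-coding transcripts, FDR alone, and each library left out. Simulations held 200 changed genes in the comparison of Chd8 siRNA with control. With a replicate effect and a log2 change of 1, the fit with siRNA only recovered 0 of them and the blocked fit 93. False calls were 0 and 6. At a log2 change of 2 these fits recovered 91 and 126, with 1 and 9 false calls. Without a replicate effect they recovered 1 and 0 at a log2 change of 1. The absence of calls without the block therefore does not exclude changes of that size.

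Replicate numbers come from the sample titles. Deviations from the group means correlated across genes, which are not independent replicates, at r = 0.244 to 0.521 for every pair with the same number and at a mean of −0.184 for other pairs. Subtracting the group means itself lowers the correlation of other pairs, so their negative mean adds no support for the pairing. All same-number pairs were over 0.1, so the numbers were taken to pair the libraries, and the blocked values are given as well. The biological coefficient of variation was 0.408 without and 0.234 with the block. The fits to libraries numbered 2 and 3, the test of replicate number, and the contrast of numbers 2 and 3 were added after seeing the data.

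The members and lists were chosen with earlier results of these data known. Named genes are all members, Chd8 and Tsc2, and, from each list, genes called with or without the block and the 3 with the highest mean CPM, except that some genes are not reported here. P2ry12, Tmem119, H2-Oa, H2-Ob, Pdcd1, Ms4a7, and genes named for absence or as defining markers were added after their values were seen. Likeness is the Pearson r with the mean z-score of H2-Aa, H2-Ab1, H2-Eb1, and Cd74. Promoters are RefSeq sequences on GRCm38.p6.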

Additional observations from a re-analysis of the deposited data

How the results depend on the processing

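Under the replicate block, 87, 63, and 36 genes were called in the comparisons of Chd8 siRNA with control, Tsc2 siRNA with control, and Chd8 with Tsc2 siRNA, where 0 were called without it, and the block changed no call of a member when all libraries were kept. DESeq2's Wald test called 9, 6, and 5 genes. Without the count filter, 2 genes were called in the Chd8 and 1 in the Tsc2 comparison with control. In the libraries numbered 2 and 3 with the block, 105, 128, and 136 genes were called, and 1 member, Cd74, in each comparison with Chd8 siRNA. With each library left out in turn, with and without the block, between 0 and 108, 131, and 130 genes were called, and between 0 and 1 members, again Cd74 in both comparisons that involve Chd8 siRNA. These counts were 0 in every fit without the block, and their lowest values with it were 20, 7, and 4 genes.

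Of 188 member values under alternatives that keep all libraries, 15 changed sign and 0 were newly called. All values here are log2 fold changes. Between Chd8 siRNA and control, H2-Ab1 was −0.28 with the block and −0.040 with limma-voom, Cd40 was 0.044 and 0.063, and with protein-coding transcripts H2-Aa was 0.0083 and H2-DMa −0.055. Between Tsc2 siRNA and control, H2-Ab1 was −0.41 with the block and −0.85 with limma-voom, and Cd40 was 0.036 and 0.063. Between the knockdowns, H2-Ab1 was 0.13 and 0.81, Cd80 was 0.16 and 0.083, and Cd40 was −0.0088 without the count filter. In the libraries numbered 2 and 3, without and with the block, H2-Ab1 was −0.64 and −0.67 in the Chd8 comparison, −1.75 and −1.66 in the Tsc2 comparison, and 1.11 and 0.99 between the knockdowns. There Cd86 was −0.014 and −4.8e-05 in the Chd8 comparison, and Cd274 was −0.024 and −0.026 in the Tsc2 comparison. The causes were not tested.

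Of 486 member values with a library left out, 96 changed sign and 7, all Cd74, were newly called. For Chd8 siRNA the ranges that crossed 0 were −1.34 to 0.92 for H2-Aa, −0.98 to 0.60 for H2-Ab1, −0.31 to 0.51 for H2-DMa, −0.053 to 0.19 for Cd86, and −0.42 to 0.48 for Cd40. For Tsc2 siRNA they were −2.85 to 0.89 for H2-Aa, −2.0 to 1.00 for H2-Ab1, −2.18 to 1.04 for H2-Eb1, −0.40 to 0.14 for H2-DMa, −0.072 to 0.32 for Cd74, −0.46 to 0.48 for Cd40, and −0.19 to 0.28 for Cd274. Between the knockdowns they were −1.17 to 2.71 for H2-Aa, −1.36 to 2.17 for H2-Ab1, −3.30 to 0.10 for H2-Eb1, −0.11 to 0.70 for H2-DMa, −0.50 to 0.37 for Cd80, −0.33 to 0.40 for Cd40, and −0.015 to 0.35 for Cd274. Depth limits the class II chains and Ciita most, since their lowest libraries hold between 0 and 8 counts.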

Other observations

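The 5 genes outside the members whose log2 CPM was most like the mean z-score of H2-Aa, H2-Ab1, H2-Eb1, and Cd74 over the 9 libraries were Sqor (Pearson r = 0.98), Lrrc8a (0.98), Pld4 (0.97), Trerf1 (0.97), and Ddi2 (0.97). They are a description, because they were picked from all genes tested for their likeness and the 9 libraries share their replicate numbers. Sqor, a mitochondrial enzyme that oxidizes sulfide, was at 31.8 CPM or more in the libraries numbered 1 and at 23.6 CPM or less in the other 6. Pld4, an endolysosomal exonuclease of myeloid cells, was at 65.6 CPM or more and at 41.1 CPM or less in the same libraries. Lrrc8a, a subunit of the volume-regulated anion channel, was at 45.4 CPM or more and at 23.1 CPM or less. Col1a1, a fibroblast collagen, was at 1.98 to 44.0 CPM and was the only marker of other cells called with the block, at −1.31 on the log2 scale with Chd8 siRNA (adjusted p = 0.0218).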
